A study of Homo sapiens with 6 samples.

Results

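The genes described here act in plasminogen activation at the cell surface and in the start and restraint of blood coagulation. They were chosen by name, with earlier results of these data known, as the rows of the deposited table for PLAU, PLAUR, PLAT, SERPINE2, SERPINB2, F3, TFPI, TFPI2 and THBD. The table holds 8 of these 9 genes among 16617, and TFPI2 is not analysed here. The study measured RNA by sequencing in T3M4 cells, a human line established from a pancreatic ductal adenocarcinoma. It compared 3 libraries of cells carrying a guide against METTL13 (sgMETTL13, labelled KD and described as a METTL13 knockdown) with 3 libraries of cells carrying a control guide (sgControl, labelled WT). Both groups grew in the same serum-containing medium. METTL13 encodes a methyltransferase of the translation elongation factor eEF1A. The sources used here do not say whether the sgMETTL13 cells were a pool or 1 clone.

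Plasminogen is a circulating zymogen that is cut into plasmin, a broad protease of fibrin and matrix, by urokinase (PLAU) or by the tissue-type activator (PLAT). Urokinase works bound to its receptor PLAUR, which concentrates proteolysis at the cell surface, and serpins trap both activators in inactive complexes. Tissue factor (F3) is the membrane receptor that starts coagulation by binding factor VIIa, TFPI blocks that complex, and thrombomodulin (THBD) turns thrombin towards anticoagulant protein C. Carcinoma cells of the pancreas are known for making urokinase, its receptor and tissue factor.

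The deposited table gives 1 average per group and no value per library, so no spread between libraries is printed. Mean estimated reads per library summed to 15247500 in sgMETTL13 and 15240866 in sgControl. The METTL13 transcript averaged 142.67 estimated reads in sgMETTL13 and 1015 in sgControl, which leaves 14.1% of its reads and matches the labels. Of 7 epithelial markers fixed for the check, all were measured, at 49.6 to 2078 TPM (a level scaled for transcript length and library size) in sgMETTL13 and 53.7 to 2107 TPM in sgControl. The vessel wall is a known source of THBD, PLAT and TFPI, but endothelial markers summed to 1.44 TPM in sgMETTL13 and 2.05 TPM in sgControl over the 4 of 6 in the table. In a bulk measurement, less RNA per cell and fewer cells that make it cannot be told apart.

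Urokinase, its receptor and both serpin members rose in sgMETTL13 cells, and tissue factor fell slightly. PLAU, PLAUR, SERPINE2 and SERPINB2 were higher, by 0.26 to 0.47 on the log2 scale, and F3 fell by 0.15, according to the authors' deposited table. PLAT, TFPI and THBD did not pass the test, which here is an adjusted p under 0.05 over all genes in the authors' own comparison. The 5 called members make 62.5% of the 8 measured, beside 3.80% of all 16617 genes in the authors' deposited table. The members, and the gene lists given further on, were chosen with earlier results of these data known. Their shares of calls are therefore descriptions and not independent tests. Calls are more frequent among abundant genes, and 7 of the 8 members have at least the median of 205 mean reads, in which range 7.04% of genes were called. The 8 members had a median of 3099 mean reads, beside 742.7 for genes of that range, so this share does not match their depth. By direction, 2.73% of all genes were called higher and 1.08% lower. With a trend of fold change in transcript GC content and length removed, 4 members and 2.79% of genes were called, 1.62% higher and 1.17% lower. At a threshold of 0.01, 4 members and 2.46% of genes passed, and with Bonferroni adjustment 3 members and 1.08% of genes. The median log2 fold change of the 8 members was 0.21, beside 0.0014 over all genes.

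**Figure D1:**
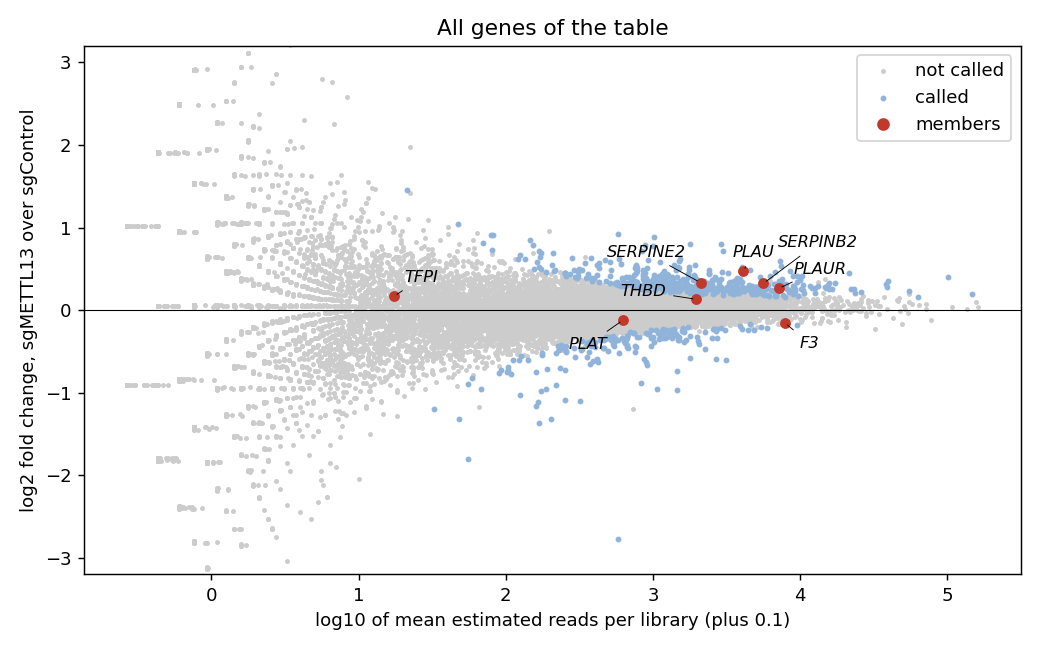
Each point is a gene, with its mean estimated reads per library on a log10 axis and its deposited log2 fold change of sgMETTL13 over sgControl on the vertical axis; the 67 genes beyond 3.2 in size are outside the axis. PLAU, SERPINE2, SERPINB2 and PLAUR lie among the called genes above 0 and F3 below 0, while TFPI sits at 17.3 mean reads in the broad part of the cloud.

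Among the plasminogen activators, the urokinase gene rose and the tissue-type gene did not pass the test. PLAU (Entrez gene 5328; chromosome 10, 73909177 to 73917497, plus strand, GRCh38 as annotated by GENCODE 29) had a mean of 256.5 TPM in sgMETTL13 and 195.2 TPM in sgControl. These correspond to 4683 and 3508 mean estimated reads per library in sgMETTL13 and sgControl. For PLAU the authors' deposited table gives a log2 fold change of 0.47, or 1.38-fold (adjusted p = 1.6e-13). The standard error implied by its p-value was 0.057, and the implied 95% interval ran from 0.36 to 0.58 on the log2 scale. By p-value PLAU ranked 18 among all genes of the table, and by size it ranked 71 among the 453 called rises.

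PLAT, the activator that works mainly on fibrin, was a minor transcript beside PLAU. Its mean was 23.9 TPM in sgMETTL13 and 27.2 TPM in sgControl. Its log2 fold change in the authors' deposited table was -0.12 (adjusted p = 0.740, implied 95% interval from -0.30 to 0.06). PLAU TPM was 10.7 times PLAT TPM in sgMETTL13 and 7.18 times in sgControl. The exons of PLAU share 916 bases, 31.1% of their length, with C10orf55 on the opposite strand. The sources used here do not say whether the counting used strand, so the 2 transcripts may not be fully separated; C10orf55 is not analysed here.

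The urokinase receptor was the most abundant member in both groups. PLAUR (Entrez gene 5329; chromosome 19, 43646095 to 43670547, minus strand) averaged 728.5 TPM in sgMETTL13 and 640.1 TPM in sgControl, which placed it at rank 184 and rank 215 of all genes by level. The authors' deposited table lists a rise of 0.26 on the log2 scale (adjusted p = 0.0026, implied 95% interval from 0.14 to 0.39). The rise of the receptor was smaller than the 0.47 of its ligand, a difference that was not tested. In TPM the ratio of PLAU to PLAUR was 0.352 in sgMETTL13 and 0.305 in sgControl.

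Both serpins among the members rose as well. SERPINB2, also called plasminogen activator inhibitor 2, is a largely intracellular inhibitor of urokinase. SERPINB2 (Entrez gene 5055; chromosome 18, 63871692 to 63903890, plus strand) averaged 424.6 TPM in sgMETTL13 and 357.0 TPM in sgControl. By the authors' deposited table it rose by 0.32 on the log2 scale (adjusted p = 1.19e-06, implied 95% interval from 0.21 to 0.43). SERPINE2, or protease nexin-1, inhibits thrombin as well as both plasminogen activators. SERPINE2 (Entrez gene 5270; chromosome 2, 223975112 to 224039319, minus strand) averaged 134.9 TPM in sgMETTL13 and 115.2 TPM in sgControl. SERPINE2 rose by 0.33 on the log2 scale, also by the authors' deposited table (adjusted p = 1.98e-05, implied 95% interval from 0.21 to 0.46).

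SERPINB2 TPM was 3.15 times SERPINE2 TPM in sgMETTL13 and 3.10 times in sgControl. Summed over PLAU and PLAT, activator transcripts came to 280.4 TPM in sgMETTL13 and 222.4 TPM in sgControl. Summed over SERPINE2 and SERPINB2, transcripts of the serpin members came to 559.5 TPM in sgMETTL13 and 472.2 TPM in sgControl. On this scale the activator sum was 1.26-fold and the serpin sum 1.18-fold in sgMETTL13 over sgControl, with no test.

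**Figure D2:**
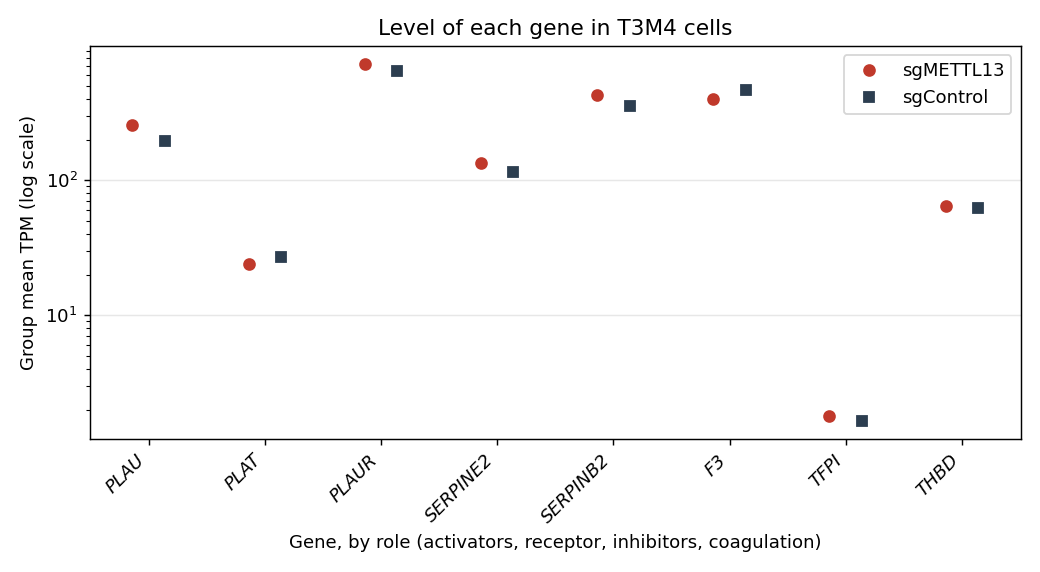
Group mean TPM on a log axis is shown for each gene, with circles for sgMETTL13 and squares for sgControl; there are no error bars because the table holds averages. PLAUR is the highest in both groups and TFPI the lowest at 1.79 and 1.66 TPM, and the circles of PLAU, PLAUR, SERPINE2 and SERPINB2 lie above their squares while that of F3 lies below.

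Tissue factor moved against the urokinase genes. F3 (Entrez gene 2152; chromosome 1, 94529225 to 94541800, minus strand) averaged 400.0 TPM in sgMETTL13 and 467.5 TPM in sgControl. The mean estimated reads of F3 were 7297 in sgMETTL13 and 8402.58 in sgControl. The authors' deposited table gives F3 a log2 fold change of -0.15, a fold of 0.900 with an implied 95% interval from 0.844 to 0.960. The adjusted p of 0.0403 lies close to the threshold, and the call was lost (adjusted p = 0.170) once the trend in GC content and length was taken out. In that setting the log2 fold change of F3 was -0.12, and the 4 rises kept their calls. F3 came next to PLAUR in sgControl, and after SERPINB2 in sgMETTL13. Without values per library the change of order between F3 and SERPINB2 was not tested.

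The proteins that restrain tissue factor and thrombin were represented unequally. TFPI averaged 1.79 TPM in sgMETTL13 and 1.66 TPM in sgControl, from 18.0 and 16.6 mean estimated reads. By the authors' deposited table TFPI differed by 0.16 on the log2 scale (adjusted p = 0.968). The implied 95% interval, from -0.78 to 1.11, was too wide to tell a rise from a fall at this depth. F3 TPM was 223.9 times TFPI TPM in sgMETTL13 and 282.2 times in sgControl. THBD averaged 64.8 TPM in sgMETTL13 and 62.4 TPM in sgControl. Its difference of 0.13 on the log2 scale missed the threshold in the authors' deposited table (adjusted p = 0.431, implied 95% interval from -0.0033 to 0.26).

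**Figure D3:**
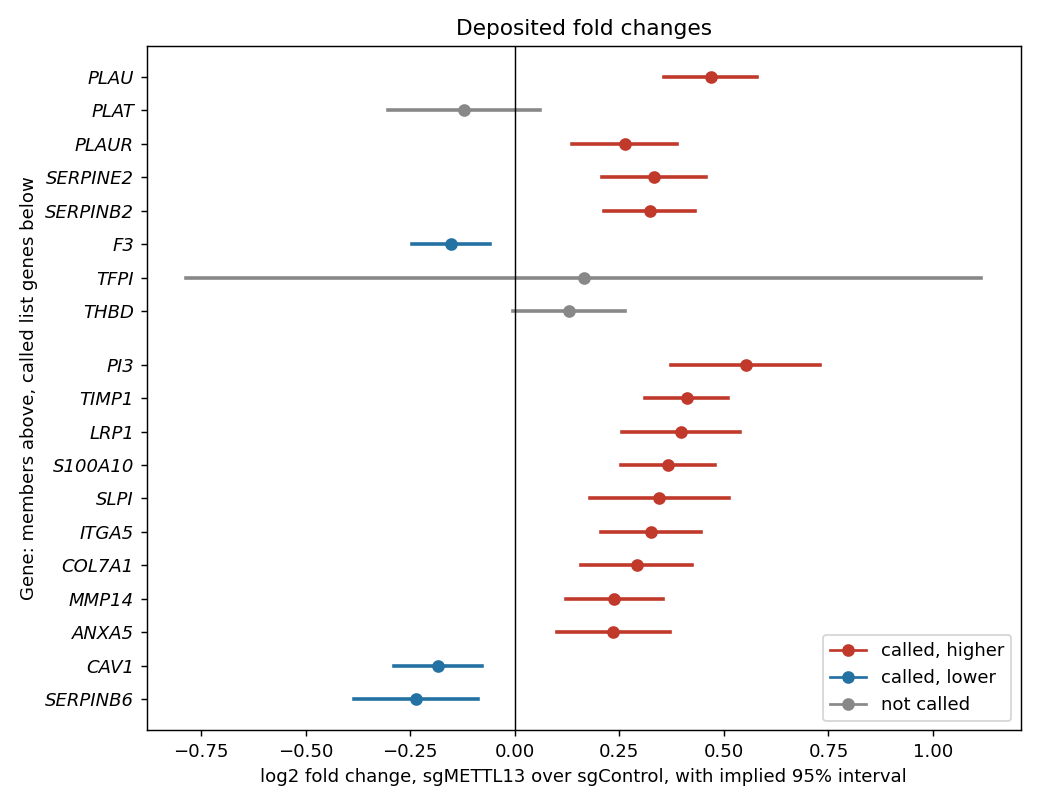
Points are deposited log2 fold changes of sgMETTL13 over sgControl and bars are 95% intervals implied by the deposited p-values, for the members in the upper block and for called genes of 4 related lists in the lower block. The interval of PLAU runs from 0.36 to 0.58 and that of F3 from -0.24 to -0.06, while the intervals of PLAT, TFPI and THBD include 0.

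Of the 5 called members, 3 carry, just before their start as annotated by RefSeq, the letters that AP-1 (FOS and JUN dimers) is known to bind. The 250 bases before each start were read from RefSeq (GRCh38.p14), in which 7 of the 9 named genes matched. The sequences of PLAUR, SERPINB2 and F3 are shown 5′ to 3′ on the gene's strand because they hold TGANTCA, which reads the same on both strands and is in capitals.
PLAUR chr19:43670170-43670419, minus strand: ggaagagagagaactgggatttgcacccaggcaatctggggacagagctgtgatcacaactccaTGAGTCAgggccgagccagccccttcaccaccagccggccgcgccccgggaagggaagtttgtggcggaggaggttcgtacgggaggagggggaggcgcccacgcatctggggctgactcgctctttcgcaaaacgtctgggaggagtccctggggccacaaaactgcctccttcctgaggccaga
SERPINB2 chr18:63887455-63887704, plus strand: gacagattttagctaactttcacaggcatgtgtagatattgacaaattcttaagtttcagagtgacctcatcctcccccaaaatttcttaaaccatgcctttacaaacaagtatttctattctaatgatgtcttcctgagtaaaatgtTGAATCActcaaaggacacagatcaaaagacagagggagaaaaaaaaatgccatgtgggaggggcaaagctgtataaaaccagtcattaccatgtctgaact
F3 chr1:94541760-94542009, minus strand: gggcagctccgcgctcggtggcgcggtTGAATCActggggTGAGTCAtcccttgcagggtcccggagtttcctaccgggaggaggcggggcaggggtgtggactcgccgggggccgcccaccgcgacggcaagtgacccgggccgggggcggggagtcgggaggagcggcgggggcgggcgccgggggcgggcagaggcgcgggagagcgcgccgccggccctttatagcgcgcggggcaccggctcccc
PLAUR has 1 match, at -186 to -180 from its start, SERPINB2 has 1 at -102 to -96, and F3 has 2, at -223 to -217 and -210 to -204. The motif is in 6.57% of 35116 RefSeq windows of this length. That is a share of windows and not of genes, and PLAU and SERPINE2 have 2 windows each. The measured genes with a match include 2 that rose and F3, which fell. TFPI2, whose transcript is not analysed here, has 1 match at -87 to -81. The windows of PLAT and THBD are not analysed here, so TFPI, with no match, is the 1 uncalled measured member in this comparison. PLAU, with the largest rise, has no match in the windows of its 2 annotated starts, and SERPINE2 has none either. A GC box (GGGCGG or its complement CCGCCC, on either strand) is in 42.6% of all windows, with 4 matches in F3, 3 in PLAU, 3 over the 2 starts of SERPINE2, and 0 in PLAUR and SERPINB2. The TATA box letters TATAAA, on either strand, are in 10.7% of windows, at -28 to -23 in F3 and at -30 to -25 in SERPINB2. TFPI holds none of the 4 motifs searched. GCGGGGGCG, a binding sequence of EGR1, is in 4.72% of windows and has 1 match in F3, at -82 to -74, which overlaps a GC box, and 1 in TFPI2, at -118 to -110. TFPI2 also has 2 GC boxes. These are matches of letters in a window and were not tested for binding.

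SERPINB2 lies in a cluster of clade B serpin genes, and the rise was not shared as a call by its neighbours. The cluster spans 543 kb of chromosome 18 with 11 protein-coding genes in GENCODE 29, of which 10 are in the table and SERPINB2 was the 1 called. Over all genes 3.80% were called. SERPINB5, or maspin, averaged 129.5 TPM in sgMETTL13 and 121.1 TPM in sgControl, a log2 difference of 0.17 by the authors' deposited table (adjusted p = 0.187). SERPINB8 averaged 23.2 TPM in sgMETTL13 and 19.3 TPM in sgControl, a log2 difference of 0.19 by the authors' deposited table (adjusted p = 0.518). The remaining 7 had at most 10.3 TPM in either group and implied standard errors of at least 0.18, beside 0.055 for SERPINB2. A rise of the size seen in SERPINB2 would not have been called in them, nor in SERPINB8 with its implied standard error of 0.107. Of the measured neighbours, only SERPINB5 (0.069) was precise enough for such a call. SERPINB3 and SERPINB4 are near-identical copies, so the division of reads between them is uncertain. SERPINB10 shares 547 exon bases with SERPINB2 but had 2 mean estimated reads in sgMETTL13 and 5.67 in sgControl. Differences between SERPINB2 and its neighbours in fold change were not tested.

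**Figure D4:**
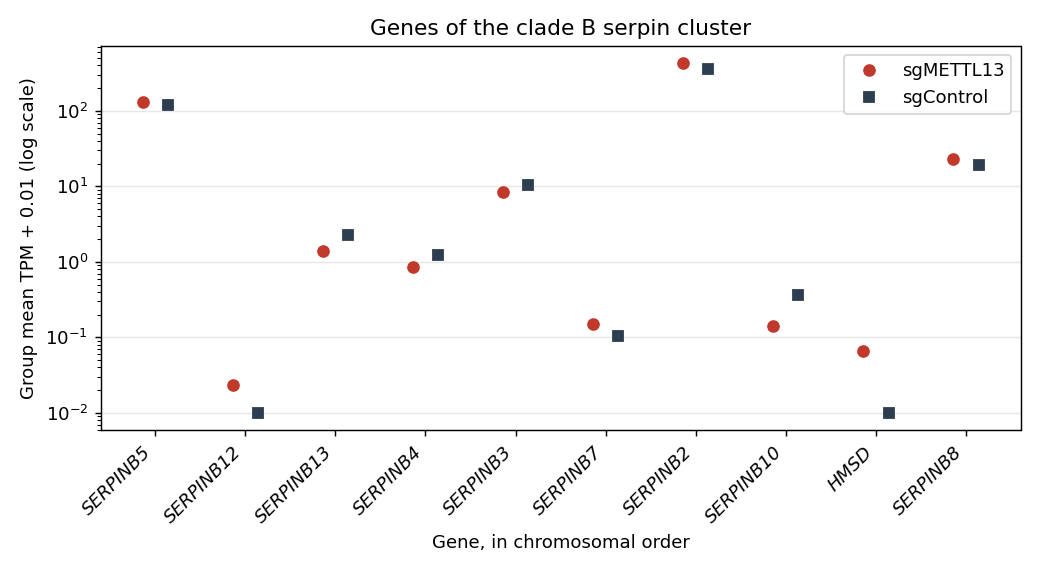
Group mean TPM plus 0.01 is shown on a log axis for the 10 measured genes of the clade B serpin cluster in chromosomal order, with circles for sgMETTL13 and squares for sgControl. SERPINB2 stands highest at 424.6 and 357.0 TPM, next to SERPINB10 at 0.133 and 0.36 TPM.

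Other genes of the plasminogen system were called in both directions. Of 40 measured genes in a list of its receptors, clearance receptors, inhibitors and downstream proteases, the authors' deposited table has 5 called higher, 1 called lower and 34 not called, so 15.0% of the list was called. Over all genes 3.80% were called, 2.73% higher and 1.08% lower, and the share was 7.04% among the more abundant ones that reach the median of 205 reads, as 20 of the 40 do. Rises made 71.7% of the calls over all genes. With the trend removed, 4 genes of the list were called higher and 2 lower. The list median was 0.05 on the log2 scale, beside 0.0014 over all genes. TIMP1, an inhibitor of matrix metalloproteinases, averaged 1738 TPM in sgMETTL13 and 1375 TPM in sgControl, and rose by 0.41 on the log2 scale by the authors' deposited table (adjusted p = 1.97e-13). S100A10, which forms a plasminogen receptor with annexin A2, averaged 525.7 TPM in sgMETTL13 and 429.0 TPM in sgControl (log2 fold change 0.37 and adjusted p = 6.01e-08 in the authors' deposited table). Its partner ANXA2 (log2 fold change 0.17) just missed the threshold in the authors' deposited table (adjusted p = 0.0535).

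LRP1, the endocytic receptor that clears complexes of urokinase with its inhibitors, averaged 18.4 TPM in sgMETTL13 and 14.7 TPM in sgControl, a rise of 0.40 on the log2 scale by the authors' deposited table (adjusted p = 6.32e-06). The fibronectin receptor subunit ITGA5 (0.33) and the membrane-bound metalloproteinase MMP14 (0.24) were the other rises by log2 fold change in the authors' deposited table. Without the trend in GC content and length, MMP14 was no longer called (adjusted p = 0.131). SERPINB6, an intracellular serpin, was the 1 called fall, at -0.24 (log2) by the authors' deposited table (adjusted p = 0.0469). Of the abundant plasminogen-binding and integrin genes that did not pass, the authors' deposited table gives log2 fold changes of 0.11 for ENO1, 0.08 for ITGA3 and 0.09 for ITGB1. Plasminogen itself (PLG) was listed at 0 TPM in sgMETTL13 and 0.0633 TPM in sgControl.

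Among coagulation genes 1 rise and 1 fall were called. Of 42 measured genes of the coagulation list, the authors' deposited table has 1 called higher, 1 called lower and 40 not called, so 4.76% of the list was called, close to the 3.80% of all genes. The median was -0.01 on the log2 scale, and 0.05 without the 7 genes that were at 0 in a group and at no more than 1 mean read in the other. ANXA5, which binds phosphatidylserine and thereby shields it from clotting factors, averaged 363.3 TPM in sgMETTL13 and 324.2 TPM in sgControl (log2 fold change 0.24 and adjusted p = 0.0199 in the authors' deposited table). CAV1, the main protein of caveolae, averaged 420.1 TPM in sgMETTL13 and 502.2 TPM in sgControl (log2 fold change -0.18 and adjusted p = 0.0198 in the authors' deposited table), and its call was lost with the trend removed (adjusted p = 0.0532). Receptors through which tissue factor and thrombin signal did not pass, with log2 fold changes of 0.11 for F2RL1, 0.09 for F2R and 0.11 for the protein C receptor PROCR in the authors' deposited table. Levels of F2RL1 were 55.5 TPM in sgMETTL13 and 54.4 TPM in sgControl. F7, the plasma partner of tissue factor, was listed at 0 TPM in sgMETTL13 and 0.03 TPM in sgControl. The abundant P4HB (0.09), PDIA3 (0.0016), NT5E (0.09) and VKORC1 (0.09) did not pass either, by log2 fold change in the authors' deposited table.

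Beyond the members, the serpin family gave 0 higher and 1 lower, SERPINB6, of 23 measured in the authors' deposited table, or 4.35%, close to the 3.80% of all genes. The list median of -0.24 on the log2 scale, -0.16 without the 5 genes at 0 in a group, comes from genes with a median of 9.5 mean reads. The abundant SERPINH1 (0.02) and SERPINB1 (-0.11) did not pass, by log2 fold change in the authors' deposited table. Of 19 measured inhibitors with a Kunitz, WFDC or like domain, 3 were higher and 0 lower (15.8% called, beside 3.80% of all genes) in the authors' deposited table, with a list median of 0.13 on the log2 scale. Of these 19, 9 reach the median of 205 mean reads, in which range 7.04% of genes were called. PI3, or elafin, an elastase inhibitor, averaged 241.7 TPM in sgMETTL13 and 173.4 TPM in sgControl (log2 fold change 0.55 and adjusted p = 3.09e-07 in the authors' deposited table). SLPI, a related leukocyte protease inhibitor, averaged 331.8 TPM in sgMETTL13 and 274.2 TPM in sgControl (log2 fold change 0.35 and adjusted p = 0.0025 in the authors' deposited table). COL7A1, a collagen with a Kunitz domain, rose by 0.29 (log2) by the authors' deposited table and lost its call with the trend removed (adjusted p = 0.138). CST3 (0.14), APP (0.13), APLP2 (0.10) and SPINT2 (0.17), the most abundant others, did not pass, by log2 fold change in the authors' deposited table.

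The precision of these values differs between genes with their depth. The implied standard error lay between 0.048 for F3 and 0.093 for PLAT among the 7 more abundant members, and was 0.485 for TFPI. It was 1.71 to 4.61 times the error that counting alone would give for the summed reads of each group, lowest for TFPI and highest for PLAUR. Relative to the median of 300 genes with like read counts, the implied standard error was between 0.807 times for F3 and 1.09 times for PLAUR. The mean reads of F3 in sgControl, and of TFPI in both groups, times 3 libraries did not give a whole number of reads within 0.005, as occurs when a read is split among genes. No direction among the 8 members changed under the other scalings that were run, from ratios of read counts, TPM and FPKM to removal of the trend. Read count ratios lie a near-constant 0.0516 below the deposited values, and centring lowers them by 0.011. Both shifts are smaller than the smallest member change, -0.12 for PLAT, so neither setting could reverse a direction.

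**Figure D5:**
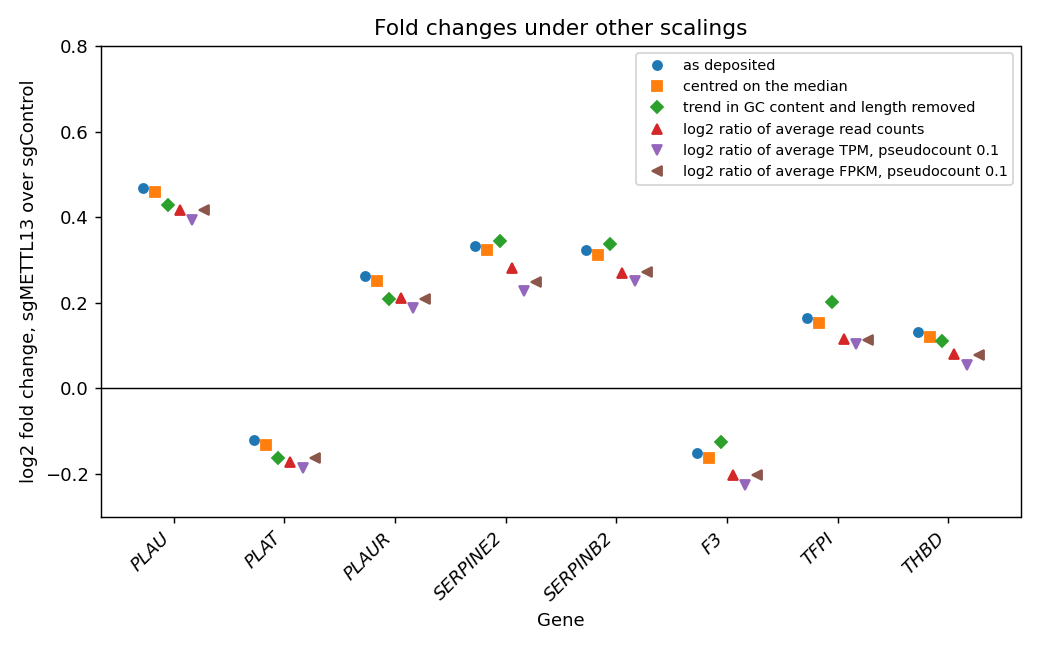
For each gene the log2 fold change of sgMETTL13 over sgControl is shown as deposited, after centring, after removal of the trend in GC content and length, and as log2 ratios of the deposited averages. PLAU stays between 0.39 and 0.47 and F3 between -0.23 and -0.12, and no gene crosses 0.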

How the data were processed

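RNA of T3M4 cells was extracted with TRIzol and per the labels' protocols a sequencing company made the libraries. The guide in each title gave the groups, 3 sgMETTL13 and 3 sgControl libraries. Nothing in the labels says that replicates were separate cultures, so p-values measure the spread between libraries, which may be technical. The submitters' processing notes list DESeq2, RSEM 1.2.12, HISAT2 2.0.4 and Bowtie2 2.2.5 on hg38 (GRCh38.p12), with no role or order.

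Per the file headers, the deposited table holds group averages of TPM, FPKM and read counts, and a log2 fold change (KD over WT), p-value and q-value. The authors deposited the read counts as averages of each estimated count (expected count in RSEM's terms) over a group's libraries, and for 21.4% of genes 3 times the average is not a whole number of reads. The log2 fold change as deposited exceeds the log2 ratio of average counts by 0.0516 (SD 0.0007 over the more abundant genes). The q-value deposited by the authors, here the adjusted p, differs by at most 1.22% from Benjamini-Hochberg values recomputed from their p-value. The sources used here do not say which test gave the p-value. A count model on libraries was planned and not run, for want of values per library; the depth of single libraries is unknown.

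The implied standard error is the size of the log2 fold change over the normal quantile of the two-sided p-value; it adds no information to the deposited values. Counting errors cover counting only, since reads carry no molecular identifiers. The trend was a weighted spline fit (4 degrees of freedom each) of log2 fold change in median transcript GC content and log2 length from GENCODE 29, matched by Entrez ID for 97.6% of genes including all 8 members; its intercept also centres the values. Steps were tested on simulated data for 16211 genes with a GC trend put in. The 200 changed genes were drawn from those at or above the median read count. Noise was drawn with the same implied standard errors that the test used. With no trend removed, the form of the main results, 86% of log2 changes of 0.5 and 100% of changes of 1 were called. Of unchanged genes, 0.712% were called. With the trend removed these shares were 91%, 100% and 0.0625%. Changes of the members' sizes, at most 0.47, were not simulated, so their recovery is unknown.

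The members and lists were chosen with earlier results of these data known. Named genes are METTL13, the members, every called gene of each list and the 4 most abundant others. Outside that rule, SERPINB3, SERPINB4, SERPINB8, SERPINB10, PLG, ST14, F7, F2R, F2RL1 and PROCR were named after their values were seen. Of the lists, 5 measured genes of the plasminogen list and 3 of the coagulation list are also in the serpin list. Of other fixed markers, those of fibroblasts (5 of 6 measured) summed to 17.3 TPM in sgMETTL13 and 17.2 TPM in sgControl (COL1A1 14.2 and 14.0). Those of leukocytes (3 of 5 measured) summed to 44.9 and 41.8 TPM in the same order. Nearly all of that was CD68 (44.1 and 40.9), at a level near that of the epithelial marker KRT7 (49.6 and 53.7). Those of platelets (2 of 4 measured) summed to 0.237 and 0.163 TPM. Alternatives were other thresholds and adjustments, a read count filter at the median, centring, trend removal and ratios of averages. Versions were matplotlib 3.10.9, patsy 1.0.2, scipy 1.17.1, pandas 2.3.3 and numpy 2.4.6 under Python 3.11.15.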

Additional observations from a re-analysis of the deposited data

How the results depend on the processing

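No paired analysis was possible because values per library were not in hand, only group means; for the same reason other count normalizations and leaving out single libraries were not run. Of 129 alternative values, 100 stayed within a tolerance of 1.5 times for counts of calls, the same side of the threshold for tests and 1 implied standard error for ratios, and no called member changed direction. Within that tolerance counts still moved, to 889 genes and 8 of the plasminogen list at a threshold of 0.10 and to 4 members at 0.01 and with the trend removed. Part of the 100 was bound to stay. For a member, a looser threshold cannot lose a call, and a stricter one or Bonferroni cannot gain one. Other thresholds and adjustments leave its fold change as it is. The 100 is therefore a description and not a measure of robustness. Over all genes 409 were called at an adjusted p under 0.01 and 180 with Bonferroni, beside 632; after removal of the trend 263 were higher and 190 lower (58.1% higher, beside 71.7%). Of the members, 3 passed Bonferroni (PLAU, SERPINB2 and SERPINE2), and PLAUR (0.26) and F3 (-0.15) did not. The Bonferroni p of PLAUR was 0.751. F3 also missed a threshold of 0.01 (adjusted p = 0.0403) and the test with the trend removed (-0.12, adjusted p = 0.170; 0.0216 to 1 over its settings). PLAUR kept its call with the trend removed at an adjusted p of 0.0423. The coagulation list had 0 calls at 0.01 and with Bonferroni and 1 with the trend removed; the serpin list had 0, 0 and 1, and 2 at a threshold of 0.10. The Kunitz and WFDC list had 1 call with Bonferroni. In the plasminogen list trend removal gave 4 higher and 2 lower, the second being ST14. Ratios of average TPM were lower than the deposited log2 fold changes, at 0.39 for PLAU, 0.19 for PLAUR, 0.23 for SERPINE2, 0.25 for SERPINB2, -0.23 for F3 and 0.055 for THBD with a pseudocount of 0.1, and 0.39, 0.19, 0.23, 0.25, -0.22 and 0.054 with a pseudocount of 1. The FPKM ratio was 0.25 for SERPINE2 and -0.20 for F3, and the read count ratio of F3 was -0.20. The ratio of TPM had a median of -0.06 over the more abundant genes. Causes of these changes were not tested. Depth limits TFPI.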
